A study of Gallus gallus with 6 samples.

Results

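Expression of 10 genes of the myostatin, activin and follistatin pathway was read from pectoral muscle RNA-seq of broiler chickens. The genes were the ligand genes MSTN and INHBA, the binding protein genes FST, FSTL1 and FSTL3, the receptor genes ACVR2A, ACVR2B and ACVR1B, and the intracellular genes SMAD3 and SMAD7. They were taken from a table of 20943 genes by matching the gene name, and each of the 10 names was found. Of these, 8 had a mean of at least 1 FPKM over all libraries (fragments per kilobase of gene length and per unit of library size) and entered the test. INHBA and ACVR2B lay under that minimum. The lowest gene inside it was SMAD7, with a mean of 1.06 FPKM, and the highest outside it was INHBA, with 0.884 FPKM.

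Treated birds received a basal diet with 100 IU/kg of vitamin E, given as DL-α-tocopheryl acetate, and the control birds received the same basal diet with 0 IU/kg. All were female broilers sampled at 35 days of age, and the labels name no strain. Each diet had 3 poly(A)-selected libraries of pectoralis major. The labels do not say whether the 3 samples of a diet came from separate birds, so p-values measure only the spread between these samples.

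Myostatin and activins are secreted ligands of the TGF-beta superfamily that bind type II activin receptors on the cell surface. The type II receptor then activates a type I receptor, which phosphorylates SMAD2 and SMAD3, and these enter the nucleus with SMAD4 and change transcription. In skeletal muscle myostatin restrains growth, and animals that lack it are heavily muscled. Follistatin and its relative FSTL3 bind myostatin and activins outside the cell and block them, and SMAD7 is an intracellular inhibitor of the type I receptors.

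The vitamin E libraries held between 14161399 and 15288812 reads and the control libraries between 16239948 and 25477341, so every vitamin E library was shallower than every control library. At 1 FPKM a transcript of 1000 bases rested on 14.2 to 25.5 reads. Control replicate 1 stood apart on the first principal component of all tested genes, at -34.4 against -14.2 to 17.4 for the other libraries. On that component vitamin E libraries lay at 8.75 to 17.4 and control libraries at -34.4 to 5.87, without overlap. Control replicate 3 stood apart on the second, at -26.4 against -5.13 to 15.4. The tissue label was checked against fast fibre markers, of which 8 of 9 were found. ACTA1, the skeletal muscle actin, lay between 22897 and 33723 FPKM in vitamin E libraries and between 29497 and 37440.3 FPKM in control libraries. PVALB, the parvalbumin of fast fibres in mouse, stayed between 0.167 and 0.649 FPKM in all 6 libraries. The slow fibre myosin MYH7 stayed between 0 and 0.119 FPKM, and MYH7B, MYL2 and MYL3 of the slow fibre list stayed under 1 FPKM. The same list's TNNC1 stood between 5693 and 10539.9 FPKM and its TNNI1 between 3.77 and 14.1 FPKM.

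No member passed the test over all genes. With limma and Benjamini-Hochberg adjustment over 11320 tested genes, 0 genes passed an adjusted p of 0.05, a share of 0%, and the lowest adjusted p of all genes was 0.0656. The lowest among the members was 0.446. At an adjusted p under 0.05, 2 other fits, voom on reads and a minimum of 5 FPKM, each called 2 genes. At an unadjusted p under 0.05, the main fit reached 1031 genes in all. Of the 8 tested members, 2 were higher at unadjusted p under 0.05, against 5.97% of all tested genes, and 0 were lower, against 3.14%. The 2 were FST and FSTL1, which share a Kazal_2 domain in the deposited annotation. The median log2 difference, vitamin E minus control, was 0.07 over the 8 tested members and 0.019 over all tested genes, with 4 members above 0 and 4 below.

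**Figure D1:**
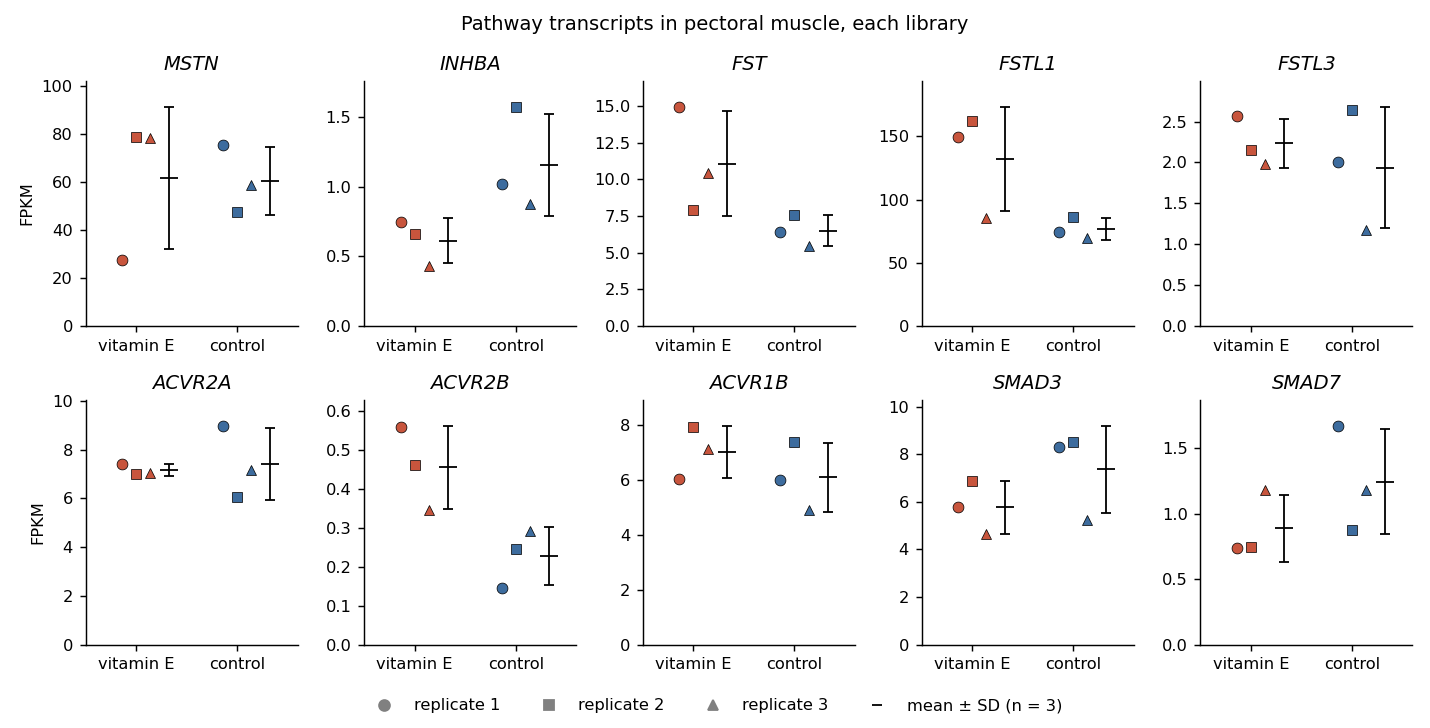
FPKM of the 10 genes in each library, 1 panel per gene with its own axis from 0, vitamin E left and control right; symbols mark replicates and bars give the mean ± SD of 3 libraries. FST and ACVR2B were higher in every vitamin E library than in any control library, INHBA was lower in every one, and the groups overlapped for the other 7 genes.

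The levels spanned the range from an abundant secreted protein to transcripts near the detection limit. On the FPKM scale, which is per length, the order of the means over 6 libraries was FSTL1 (105), MSTN (61.1), FST (8.78), ACVR2A (7.28), ACVR1B (6.56), SMAD3 (6.56), FSTL3 (2.09), SMAD7 (1.06), INHBA (0.884) and ACVR2B (0.342). FSTL1 ranked 458 and MSTN 810 among the 20943 genes, within the top 2.19% and the top 3.87%. Among neighbours in this order, the ranges over 6 libraries did not overlap between MSTN and FST, which were 6.96-fold apart, or between SMAD3 and FSTL3, which were 3.14-fold apart. All other neighbours overlapped. INHBA nevertheless exceeded ACVR2B in each of 6 libraries, and FSTL1 exceeded MSTN in 5 of 6, the exception being control replicate 1. ACVR2A and ACVR1B changed places between libraries, each being the higher in 3 of 6.

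**Figure D2:**
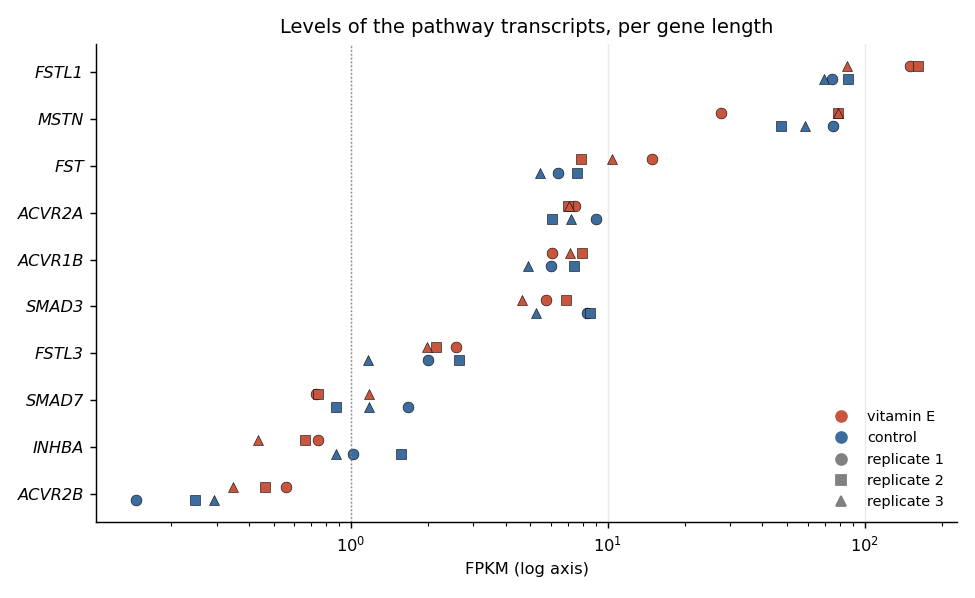
FPKM of each gene on a log axis, from the highest mean at the top to the lowest at the bottom, with the vitamin E libraries drawn above the control libraries and symbols for replicates; the dotted line is the minimum mean of 1 FPKM. Gaps in the order stand between MSTN and FST and between SMAD3 and FSTL3, and the other neighbours overlap.

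MSTN encodes myostatin, the ligand after which the pathway is known in muscle. Its row lies at chromosome 7, bases 218083 to 223575 on the plus strand, in the coordinates of the deposited table. No source used here names the genome build of these positions, and the chromosome of each sequence record was read from the gene symbols it shares with RefSeq's GRCg7b gene table. MSTN stood at 27.5, 78.9 and 78.5 FPKM in vitamin E libraries and at 75.3, 47.3 and 58.9 FPKM in control libraries. Vitamin E replicate 1 was the lowest of the 6 and the other vitamin E libraries were the highest, so the groups overlapped. The means were 61.6 ± 29.5 FPKM with vitamin E and 60.5 ± 14.1 FPKM in controls (SD, n = 3 each). The log2 difference was -0.10 ± 0.41 (SE; 95% interval -1.05 to 0.86; limma adjusted p = 0.961) on the log2(FPKM + 1) scale, an interval from 0.48-fold to 1.81-fold. Single libraries set its sign, since it was 0.40 with vitamin E replicate 1 left out and 0.07 with control replicate 1 left out. The value of vitamin E replicate 1 rested on 439 reads, and the 5 other libraries had 918 to 2164, so its low level was well above the counting limit.

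INHBA encodes the beta A chain, which forms activin A as a homodimer. It lies on chromosome 2 at bases 50745139 to 50762744 of the minus strand. INHBA stood at 0.743, 0.663 and 0.434 FPKM in vitamin E libraries and at 1.02, 1.57 and 0.873 FPKM in control libraries. Every vitamin E library was below every control library. Among all 20943 genes, 4.65% were lower without overlap in this way, and INHBA was the only 1 of the 10 members. Over the pooled libraries of each diet, 118 reads with vitamin E and 294 in controls gave 2.66 RPM, reads scaled to a fixed library size (95% exact Poisson interval 2.21 to 3.19), and 4.99 RPM (4.44 to 5.59). These intervals cover counting error only and leave out the spread between libraries. In the fit without the minimum the log2 difference was -0.41 ± 0.15 (SE; limma adjusted p = 0.672), and it stayed between -0.50 and -0.28 with each library left out in turn. With a pseudocount of 0.1 in place of 1 it was -0.80.

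FST encodes follistatin, the secreted protein that binds activins with high affinity and also neutralises myostatin. Its row lies on chromosome Z at bases 16072452 to 16078209 of the plus strand. FST stood at 14.9, 7.87 and 10.4 FPKM in vitamin E libraries and at 6.43, 7.57 and 5.47 FPKM in control libraries. Every vitamin E library was above every control library, although vitamin E replicate 2 exceeded control replicate 2 only narrowly. Of the 8 tested members FST alone had groups without overlap in this direction, against 8.86% of all tested genes, and 0 of 8 were lower without overlap, against 5.72%. The means were 11.1 ± 3.58 FPKM with vitamin E and 6.49 ± 1.05 FPKM in controls (SD, n = 3 each), a ratio of 1.70. The log2 difference was 0.66 ± 0.22 (SE; 95% interval 0.13 to 1.18; limma unadjusted p = 0.0208, adjusted p = 0.447). It was 0.65 without control replicate 1, the library that stood apart. Without vitamin E replicate 1, the highest library, it was 0.43 with an unadjusted limma p of 0.0547, and without control replicate 3 it was 0.55 with 0.0673.

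FSTL1 encodes a secreted glycoprotein with a follistatin-like domain. It is expressed widely in mesenchymal cells, and binding to bone morphogenetic proteins and their receptors has been described for it in mammals. Its row lies on chromosome 1 at bases 79864143 to 79907705 of the plus strand. FSTL1 stood at 149.8, 162 and 85.5 FPKM in vitamin E libraries and at 74.7, 85.9 and 69.4 FPKM in control libraries. Vitamin E replicates 1 and 2 were far above the controls, whereas vitamin E replicate 3 lay just below control replicate 2, so the groups overlapped there alone. The means were 132 ± 41.1 FPKM with vitamin E and 76.7 ± 8.41 FPKM in controls (SD, n = 3 each), a ratio of 1.73. The log2 difference was 0.73 ± 0.24 (SE; 95% interval 0.16 to 1.31; limma unadjusted p = 0.0191, adjusted p = 0.446). Removing vitamin E replicate 1 gave 0.62 with an unadjusted limma p of 0.0658, and removing vitamin E replicate 2 gave 0.56 with 0.0692. Removing control replicate 3 gave 0.66 with 0.0582, and removing control replicate 1, which stood apart, gave 0.72.

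FSTL3, a close relative of follistatin that binds activins and myostatin in the extracellular space, was a low transcript. Its row lies on chromosome 28 at bases 2762095 to 2770426 of the plus strand. FSTL3 stood at 2.57, 2.15 and 1.98 FPKM in vitamin E libraries and at 2.00, 2.64 and 1.17 FPKM in control libraries. The groups overlapped, and the lowest value was that of control replicate 3, with 34 reads. The vitamin E minus control value was 0.17 ± 0.20 (SE; limma adjusted p = 0.840), and it was -0.04 without that library. FSTL1, FST and FSTL3 shared a Kazal_2 domain in the deposited annotation, and their mean levels over 6 libraries were 105, 8.78 and 2.09 FPKM.

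**Figure D3:**
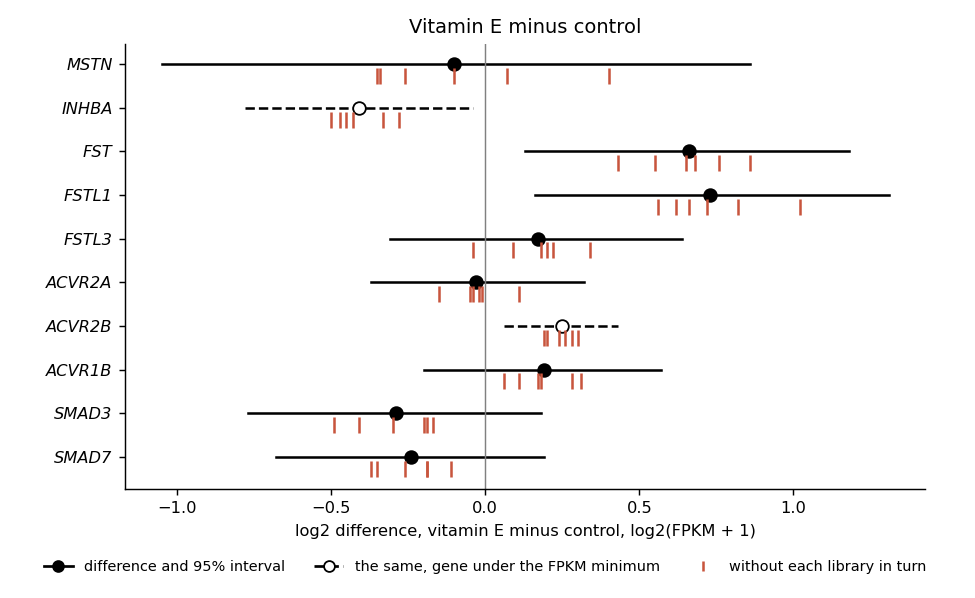
Log2 difference, vitamin E minus control, on the log2(FPKM + 1) scale for the 10 genes with its 95% interval from limma; open points with dashed lines are the 2 genes under the FPKM minimum, fitted without it, and ticks give the value with each library left out in turn. FST, FSTL1, ACVR2B and ACVR1B stayed positive and INHBA, SMAD3 and SMAD7 stayed negative in all 6 leave-outs. SMAD7 reached the FPKM minimum only through the control libraries. MSTN, FSTL3 and ACVR2A lay on both sides of 0.

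The receptors bind the ligands in the order type II and then type I. ACVR2A, a type II receptor for activins and myostatin, lies on chromosome 7 at bases 34687035 to 34744468 of the plus strand. It stood at 7.43, 7.0 and 7.06 FPKM in vitamin E libraries and at 8.98, 6.04 and 7.17 FPKM in control libraries. The vitamin E values lay close together inside the control range, and the log2 difference was -0.03 ± 0.15 (SE; 95% interval -0.37 to 0.32; limma adjusted p = 0.975). It was 0.11 without control replicate 1, the highest library.

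ACVR2B, the other type II receptor and a high-affinity receptor of myostatin, was the lowest of the 10 genes. Its row lies on chromosome 2 at bases 5768481 to 5858480 of the minus strand. ACVR2B stood at 0.560, 0.463 and 0.346 FPKM in vitamin E libraries and at 0.145, 0.246 and 0.293 FPKM in control libraries. Every vitamin E library was above every control library. A share of 7.38% of the 20943 genes was higher without overlap, and among the 10 members ACVR2B and FST were. These values rested on 15, 13 and 10 reads in vitamin E libraries and on 7, 8 and 9 reads in control libraries. Pooled by diet, that was 0.858 RPM with vitamin E (95% exact Poisson interval 0.607 to 1.18) and 0.407 RPM in controls (0.261 to 0.606). Counting error alone is covered by these intervals, which leave out the spread between libraries. Fitted without the minimum, the log2 difference was 0.25 ± 0.08 (SE; limma adjusted p = 0.585), and it was 0.77 with a pseudocount of 0.1.

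ACVR1B, the type I receptor known as ALK4, lies on a sequence record whose symbols stand on chromosome 34 of the GRCg7b table, at bases 10224 to 24826 of the minus strand. It stood at 6.04, 7.92 and 7.12 FPKM in vitamin E libraries and at 5.99, 7.39 and 4.90 FPKM in control libraries. The groups overlapped, with control replicate 3 the lowest. The fitted difference was 0.19 ± 0.16 (SE; 95% interval -0.20 to 0.57; limma adjusted p = 0.772). Leaving out control replicate 3 gave 0.06, leaving out vitamin E replicate 2 gave 0.11, and leaving out control replicate 2 gave 0.31. For both ACVR2A and ACVR1B the difference was within the spread between libraries. The intervals allowed changes in FPKM + 1 of 0.77-fold to 1.25-fold for ACVR2A and of 0.87-fold to 1.48-fold for ACVR1B.

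SMAD3 carries the signal of the activin and myostatin receptors to the nucleus. Its row lies on chromosome 10 at bases 18812337 to 18872532 of the plus strand. SMAD3 stood at 5.77, 6.85 and 4.65 FPKM in vitamin E libraries and at 8.31, 8.51 and 5.25 FPKM in control libraries. Control replicates 1 and 2 were the highest of the 6, and control replicate 3 lay within the vitamin E range. On the log2 scale the difference was -0.29 ± 0.20 (SE; 95% interval -0.77 to 0.18; limma adjusted p = 0.703). With each library left out in turn it lay between -0.49 and -0.17. The lower end came without control replicate 3, with an unadjusted limma p of 0.0248, and the upper end without vitamin E replicate 3, with 0.464. Without control replicate 2 it was -0.19.

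SMAD7, the inhibitory SMAD that competes for the type I receptor and is itself induced by the pathway, lies on chromosome Z at bases 1241970 to 1271132 of the plus strand. It stood at 0.734, 0.747 and 1.18 FPKM in vitamin E libraries and at 1.67, 0.876 and 1.18 FPKM in control libraries. Control replicate 1 was the highest, and the remaining libraries overlapped. Its log2 difference was -0.24 ± 0.18 (SE; 95% interval -0.68 to 0.19; limma adjusted p = 0.728), and it was -0.11 without control replicate 1 and -0.37 without control replicate 2. It was -0.43 with a pseudocount of 0.1 and -0.51 with voom on reads. SMAD7 reached the minimum of 1 FPKM only through the control libraries, with means of 1.24 FPKM there and 0.886 FPKM with vitamin E. The minimum was taken over all 6 libraries in each fit, so the leave-outs of SMAD7 add no separate evidence. Control replicate 3 was the lowest library for 4 of the 10 members, and control replicate 2 and vitamin E replicate 2 were each the highest for 3.

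Ratios between members were also taken within each library. With 3 libraries a diet, the lowest two-sided p of an exact permutation test is 0.1, and 4 ratios were tested on the log2(FPKM + 1) scale. The log2 ratio of INHBA to FST, the activin A chain against its binding protein, was -3.19, -2.42 and -2.99 in vitamin E libraries and -1.88, -1.74 and -1.79 in control libraries. All vitamin E ratios were below all control ratios, which were tightly grouped. The difference was -1.06, with an exact permutation p of 0.1, the smallest possible, and an adjusted p of 0.4 over the 4 ratios. Both genes already stood apart singly, in opposite directions, so this ratio adds no separate evidence.

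The log2 ratio of MSTN to FST was 0.84, 3.17 and 2.80 in vitamin E libraries and 3.36, 2.50 and 3.21 in control libraries. Vitamin E replicate 1, which had the least MSTN and the most FST, was far below the others, and the groups overlapped. The difference was -0.75 (exact permutation p = 0.5, adjusted p = 0.667), and it was -0.04 without that library. The log2 ratio of ACVR2A to ACVR2B averaged 2.49 ± 0.08 with vitamin E and 2.76 ± 0.32 in controls (SD, n = 3 each; exact permutation p = 0.2, adjusted p = 0.4). The difference was -0.27, and it was -0.09 without control replicate 1. It depended on the pseudocount: with 0.1 in place of 1 it was -0.80, with an exact permutation p of 0.1. The plain FPKM ratios, with no pseudocount, were 13.3, 15.1 and 20.4 in vitamin E libraries and 61.8, 24.6 and 24.5 in control libraries, without overlap. ACVR2B already stood apart singly, on 7 to 15 reads per library, so its ratio adds no separate evidence. The log2 ratio of SMAD7 to SMAD3 averaged -1.84 ± 0.41 with vitamin E and -1.89 ± 0.42 in controls (SD, n = 3 each; exact permutation p = 0.9, adjusted p = 0.9).

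**Figure D4:**
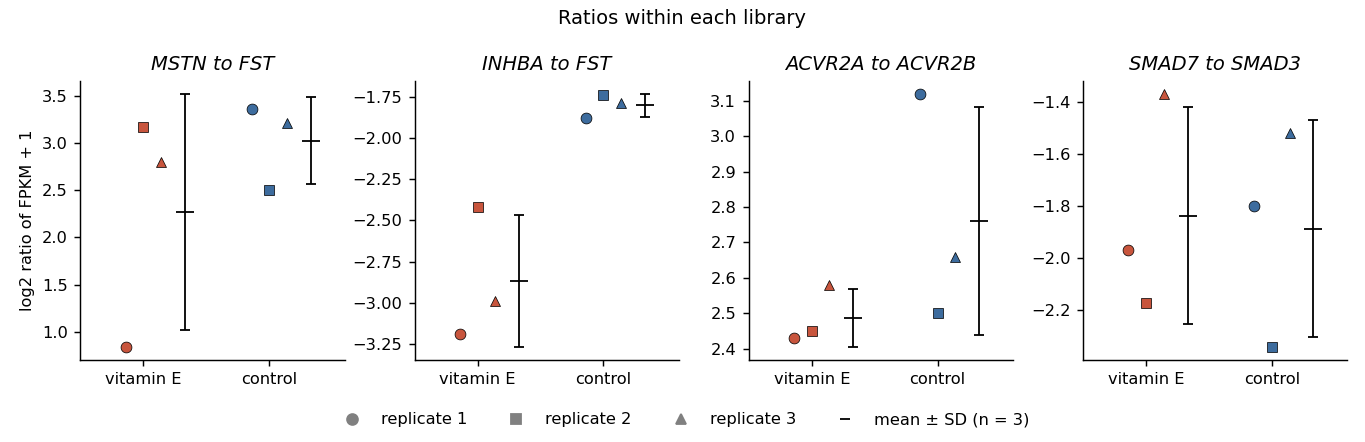
Log2 ratio of (FPKM + 1) within each library for 4 pairs of genes, vitamin E left and control right, with symbols for replicates and bars for the mean ± SD of 3 libraries; axes do not start at 0. With the pseudocount of 1 drawn here, INHBA to FST has groups without overlap and the other 3 ratios overlap, and vitamin E replicate 1 lies far below the rest for MSTN to FST.

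The rest of the pathway was read from 9 lists of 104 genes, of which 93 were found and 66 tested. Of the 66, 6 were higher and 2 lower at an unadjusted p under 0.05, beside 5.97% and 3.14% of all tested genes, and 0 passed the adjusted test. Their median log2 difference was 0.01, against 0.019 over all tested genes, with 34 above 0 and 32 below. Among other receptors and co-receptors 3 of 10 were higher and 0 lower. AMHR2, the type II receptor of anti-Müllerian hormone, stood at 1.91, 1.69 and 1.11 FPKM in vitamin E libraries and at 0.527, 0.645 and 0.496 FPKM in control libraries, a log2 difference of 0.71 ± 0.17 (SE; limma adjusted p = 0.3). The co-receptor ENG, endoglin, differed by 0.41 and TGFBR3, betaglycan, by 0.49, both without overlap. Of the 66 tested genes of all lists, 7 were higher and 3 lower without overlap, beside 8.86% and 5.72% of all tested genes. With each library left out, AMHR2 and ENG stayed under an unadjusted p of 0.05 in 6 of 6 fits and TGFBR3 in 3 of 6. AMHR2 reached the minimum of 1 FPKM only through the vitamin E libraries, with means of 1.57 FPKM there and 0.556 FPKM in controls. The same held for PCSK5, also among the 7 higher without overlap, with means of 1.42 FPKM and 0.927 FPKM. The minimum was taken over all 6 libraries in each fit, so the leave-outs of AMHR2 add no separate evidence.

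Beside 5.97% of all tested genes, 1 of 9 other extracellular binders and inhibitors was higher at an unadjusted p under 0.05. This was CHRDL1, a secreted antagonist of bone morphogenetic proteins, at 4.49, 2.41 and 2.09 FPKM in vitamin E libraries and 0.400, 1.93 and 0.886 FPKM in control libraries. The groups did not overlap, as in 8.86% of all tested genes in this direction, and the log2 difference was 0.97 ± 0.32 (SE; limma adjusted p = 0.446). It was 0.72 when either vitamin E replicate 1 or control replicate 1 was left out, and stayed under an unadjusted p of 0.05 in 4 of 6 leave-outs. LTBP1, which tethers latent TGF-beta to the matrix, differed by 0.42, and TWSG1, a modulator of bone morphogenetic protein binding, by 0.26, and VASN, a binder of TGF-beta, by -0.37, none of them at an unadjusted p under 0.05. Among proteases that activate the ligands 0 of 5 reached that level. The proprotein convertases PCSK5 and PCSK6 differed by 0.32 and 0.34, and TLL1, a tolloid-like metalloprotease, by 0.32. PCSK5 reached the FPKM minimum only through the vitamin E libraries.

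Neither ligand list held a gene at an unadjusted p under 0.05. Among activin and TGF-beta ligands TGFB3 had the largest difference of the 3 tested, -0.72 ± 0.51 (SE; limma adjusted p = 0.704). It stood at 83.8, 45.4 and 59.6 FPKM in vitamin E libraries and at 236, 56.1 and 78.4 FPKM in control libraries. Control replicate 1 alone was far above the rest, and the other libraries overlapped. TGFB2 and TGFB1 differed by -0.19 and -0.03. Among 5 bone morphogenetic protein and GDF ligands BMP6, GDF3 and BMP5 differed by 0.24, -0.23 and 0.47.

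Inside the cell, SMAD2, the partner of SMAD3, stood at 6.35, 5.29 and 4.39 FPKM in vitamin E libraries and at 6.49, 6.83 and 6.79 FPKM in control libraries. The vitamin E libraries were all lower, with a log2 difference of -0.29 ± 0.14 (SE; limma unadjusted p = 0.0691, adjusted p = 0.574). Vitamin E replicate 1 was only narrowly below control replicate 1, and 5.72% of all tested genes were lower without overlap. SMAD4 and SMAD1 differed by 0.06 and 0.01. At an unadjusted p under 0.05, 1 of 17 intracellular regulators was lower, beside 3.14% of all tested genes. This was SKIL, a nuclear repressor that binds SMAD2 and SMAD3. It stood at 2.50, 3.73 and 2.98 FPKM in vitamin E libraries and at 4.17, 4.36 and 4.03 FPKM in control libraries. SKIL differed by -0.36 without overlap, and stayed under an unadjusted p of 0.05 in 1 of 6 leave-outs. PPM1A, a phosphatase that acts on SMAD2 and SMAD3, differed by -0.38, and the ubiquitin ligase WWP1 by 0.19.

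Transcripts known to respond to SMAD2 and SMAD3 stood on both sides. At an unadjusted p under 0.05, 2 of 10 were higher and 2 lower, beside 5.97% and 3.14% of all tested genes. The higher genes were the type I collagen chains COL1A2, by 0.61, and COL1A1, by 0.64. COL1A2 stayed under that p in 6 of 6 leave-outs and COL1A1 in 2 of 6. The lower genes were SKIL, which also stands among the regulators, and CTGF, a matricellular growth factor, by -0.63. CTGF stood at 17.2, 17.9 and 22.8 FPKM in vitamin E libraries and at 42.6, 23.5 and 27.3 FPKM in control libraries, without overlap. Of all tested genes 5.72% were lower without overlap. The difference of CTGF was -0.38 without control replicate 1, and it stayed under that p in 3 of 6 leave-outs. Among 5 transcripts that respond to SMAD1 and SMAD5 none reached that level, and HEY1, ID3 and ID2 differed by -0.38, -0.20 and 0.13.

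**Figure D5:**
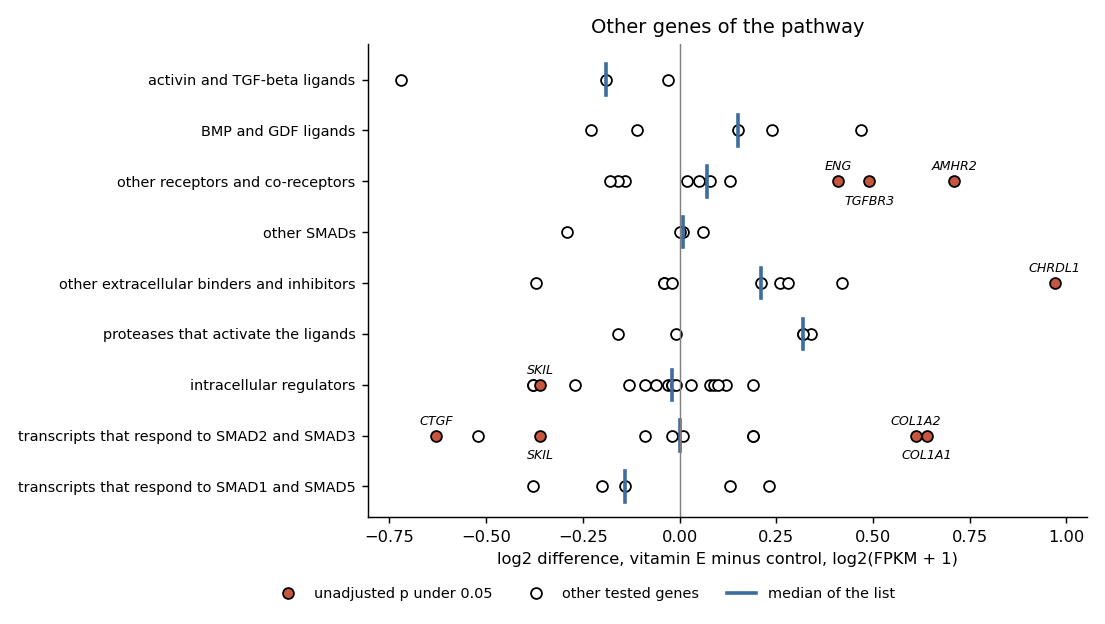
Log2 difference, vitamin E minus control, of each tested gene in 9 lists of other pathway genes; filled points are at an unadjusted p under 0.05 and bars mark each list's median. Filled points on the right lie among receptors, extracellular binders and SMAD2 and SMAD3 responsive transcripts, and those on the left are CTGF and SKIL.

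Markers of connective tissue were higher as a sum with vitamin E, but none of them passed the adjusted test over all genes. The 8 genes of the fibroblast and connective tissue list summed to 3424, 2575 and 2485 FPKM in vitamin E libraries and to 1706, 2014 and 1643 FPKM in control libraries, without overlap. All 8 were found and none was at 0 in any library. At an unadjusted p under 0.05, 7 of 8 were higher, against 5.97% of all tested genes, and 4 of 8 were higher without overlap, against 8.86%. FSTL1 in vitamin E replicate 3 and FST in vitamin E replicate 2 stayed near the control level. The sum of the list was above every control sum in both libraries, but some of its single genes were not above every control. FBN1 and PDGFRA in vitamin E replicate 3 lay below control replicate 2. In vitamin E replicate 2, LUM lay below control replicate 1 and POSTN below control replicate 2. COL1A1 and COL1A2 belong both to this list and to the SMAD2 and SMAD3 responsive list. In bulk tissue more or fewer cells of a type and more or less RNA per cell cannot be told apart. Per 1000 FPKM of the fibroblast list, FSTL1 was 43.8, 62.9 and 34.4 in vitamin E libraries and 43.8, 42.7 and 42.2 in control libraries. FST was 4.36, 3.06 and 4.18 in vitamin E libraries and 3.77, 3.76 and 3.33 in control libraries. Both sets of values overlapped between the diets. This quotient was computed after the values were seen, and the part of connective tissue in the differences was not tested.

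Satellite cell and myoblast markers summed to 115, 132 and 112 FPKM in vitamin E libraries and to 164, 124 and 108 FPKM in control libraries, and 2 of the 6 tested were lower without overlap, against 5.72% of all tested genes. The same number was lower at an unadjusted p under 0.05, against 3.14%. The fast fibre list summed to 68485, 72867 and 76236 FPKM in vitamin E libraries and to 74832, 87732 and 75316 FPKM in control libraries. Of its 7 tested genes 1 was lower without overlap, against 5.72% of all tested genes. Both sums overlapped between the diets. Red blood cell markers, of which 2 of 6 were found, summed to 75.4, 96.9 and 92.5 FPKM in vitamin E libraries and to 71.7, 34.3 and 64.8 FPKM in control libraries. Both were higher without overlap and at an unadjusted p under 0.05. Adipocyte markers summed to 271, 293 and 407 FPKM in vitamin E libraries and to 239.6, 187 and 156 FPKM in control libraries, with 2 of 6 higher at an unadjusted p under 0.05 and 1 of 6 without overlap. Over all tested genes, 8.86% were higher without overlap and 5.97% were higher at an unadjusted p under 0.05. The slow fibre, endothelial, smooth muscle and macrophage lists held 0 genes at that level and 0 without overlap. No found marker of these lists was at 0 in all 6 libraries, and the part of these cell types in the members' values was not tested.

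For the 3 tested members with the largest spread over the 6 libraries, the most similar profiles were sought among 9940 genes. The measure was the root mean square difference of log2(FPKM + 1) centred on each gene's mean over the 6 libraries. FSTL1 lay nearest to EFEMP1, an extracellular matrix glycoprotein, at 0.0859, then to MXI1, which encodes an antagonist of MYC, at 0.0923 and ABCD2, a peroxisomal fatty acid transporter, at 0.116. EFEMP1 stood at 53.7, 49.2 and 26.5 FPKM in vitamin E libraries and at 24.3, 25.5 and 21.1 FPKM in control libraries, so it too was high in vitamin E replicates 1 and 2. FST lay nearest to RMDN1 at 0.124, CPQ at 0.128 and L3HYPDH at 0.146. MSTN lay nearest to HIST1H46 at 0.134, a histone gene whose near-identical copies make its reads uncertain, to PLIN1 at 0.153 and to NOCT at 0.220. PLIN1, the lipid droplet protein perilipin, stood at 1.22, 5.65 and 4.21 FPKM in vitamin E libraries and at 3.81, 2.72 and 2.90 FPKM in control libraries. Like MSTN it was lowest in vitamin E replicate 1 and highest in the other vitamin E libraries. These are descriptions over 6 libraries with no test, and all genes of a library share its depth and scaling.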

How the data were processed

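Poly(A) RNA of pectoralis major was sequenced on an Illumina HiSeq instrument, per the labels' protocols. The authors deposited FPKM values per gene in 1 table of 20943 genes. TopHat2 2.0.12 appears in the submitters' processing notes. No source used here gives the counter, annotation, strand setting or genome build, so reads of overlapping and antisense genes may be mixed. Chromosome names came from matching the gene symbols of each sequence record to RefSeq's GRCg7b gene table. From the steps of the FPKM values, whole reads, gene lengths and library totals were recovered for all 20943 genes.

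The log2(FPKM + 1) values of genes averaging 1 FPKM or more were compared in limma 3.58.1 (R 4.3.3), two-sided and with an intensity trend, and with Benjamini-Hochberg adjustment over 11320 genes. Log2 differences on this scale understate the change of low genes. The members, lists and tests were chosen with earlier results of these data known. Named were the members, the 3 smallest unadjusted p in each list and the 3 nearest profiles of 3 members. Other genes named were chosen after their values were seen. Alternatives were other pseudocounts, filters, scalings and variance models, voom, 2 blocks and leaving out each library.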

Additional observations from a re-analysis of the deposited data

How the results depend on the processing

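The 10 members gave 170 log2 differences under other settings, and 5 of these had another sign. MSTN changed to 0.03 with library quality weights, and leaving out 1 library at a time gave -0.35 to 0.40 for MSTN, -0.04 to 0.34 for FSTL3 and -0.15 to 0.11 for ACVR2A. No member reached an adjusted p under 0.05 in any of these fits, the lowest being 0.282. FST kept an unadjusted p under 0.05 in 17 of 19 settings and FSTL1 in 16 of 19, and the sign stayed positive in all of them. Every setting in which either gene lost that level left out 1 library. The settings with all 6 libraries refit the same values and add no separate evidence. The number of members at an unadjusted p under 0.05 was 4 with no filter, adding INHBA and ACVR2B, and 0 to 2 with 1 library left out. In the fit with no filter, 980 of all 20943 genes were higher and 549 lower at that level. Members higher without overlap numbered 2 with no filter and 2 under TMM-type and median-of-ratios scaling, both of which separated FSTL1, and 1 to 3 with 1 library left out. Members lower without overlap numbered 1 with no filter and 0 to 1 with 1 library left out. Of all genes of the table, 7.38% were higher and 4.65% lower without overlap. Fewer libraries separate more easily for any gene, and the share of all genes is not given for the leave-outs or scalings. Over all genes, 2 passed the adjusted test with a minimum of 5 FPKM and 2 with voom on reads. With the minimum of 5 FPKM 679 genes had an unadjusted p under 0.05, from fewer genes tested, and with 1 library left out 699 to 1556 did. Without control replicate 2 there were 1556. Of the other pathway genes 5 did so with that minimum and 4 to 11 with 1 library left out. The log2 ratio of SMAD7 to SMAD3 was -0.10 and -0.01 with pseudocounts of 0.1 and 0.5, and -0.18 to 0.24 with 1 library left out. The cause of these changes was not tested. INHBA and ACVR2B have no limma value under the settings that keep the filter, and their ratios none under quantile normalization.

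Same-numbered libraries had correlations of -0.13, 0.15 and 0.01 between their deviations from the group means, and other pairs -0.17 to 0.14. So few values cannot settle whether replicate numbers pair the samples. With the number as a replicate block, 1043 genes and 2 members had an unadjusted p under 0.05. The unadjusted limma p was then 0.00818 for FSTL1 (adjusted p = 0.403), 0.0292 for FST and 0.0679 for SMAD3. The other block was a digit of the sample descriptions, whose meaning the labels do not give. It gave 1011 genes and 2 members, with an unadjusted limma p of 0.00512 for FSTL1 (adjusted p = 0.385), 0.0279 for FST and 0.0501 for SMAD3. At 7 to 15 reads per library, ACVR2B is limited by depth.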

Other observations

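Of the listed pathway genes 27 lay under the minimum of 1 FPKM, and those named here were chosen after their values were seen. GDF11, the ligand closest to myostatin in sequence, stood at 0.391, 0.238 and 0.264 FPKM in vitamin E libraries and at 0.297, 0.0879 and 0.248 FPKM in control libraries. INHBB, the activin beta B chain, stood between 0.0144 and 0.110 FPKM in vitamin E libraries and between 0.0473 and 0.144 FPKM in control libraries. WFIKKN2, a secreted binder of myostatin in mammals, stood at 0.441, 0.369 and 0.579 FPKM in vitamin E libraries and at 0.716, 0.363 and 0.369 FPKM in control libraries. The groups overlapped for all 3 of these genes.

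ACVR1C, the type I receptor known as ALK7, stood at 0.131, 0.531 and 0.485 FPKM in vitamin E libraries and at 0.127, 0.135 and 0.143 FPKM in control libraries. Vitamin E replicates 2 and 3 were far above the 4 other libraries, and vitamin E replicate 1 lay within the control range. The same 2 libraries were the highest for MSTN, at 78.9 and 78.5 FPKM. Control replicate 1 was close behind for MSTN, at 75.3 FPKM, but had the lowest ACVR1C. A link between these genes was not tested. GDF6 stood at 0.435, 0.415 and 0.403 FPKM in vitamin E libraries and at 0.290, 0.250 and 0.189 FPKM in control libraries. Its groups did not overlap, and 7.38% of all genes of the table were higher in this way.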
